A study of Lens culinaris with 18 samples.

Results

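The transcriptome of the seed coat with attached endosperm was compared between M11 and the cultivar Redmoon over all genes outside the 16 vicilin genes that the study followed. These were 58227 of the 58243 genes in the count tables, and 6 of the 18 libraries of the series were compared, 3 of M11 and 3 labelled Redmoon. M11 is a natural lentil (Lens culinaris) accession that carries a mutated allele of the lipid transfer protein gene LcLTP3b with a premature stop, and Redmoon is a cultivated line. The comparison is therefore between an accession and a cultivar whose relatedness was not measured, and not between lines that differ at LcLTP3b alone. Both were grown in a growth chamber, and RNA was taken from dissected mature green seeds, with no treatment. The 3 seed coat libraries of a second cultivar, labelled Gold, shared the fit, and the embryo libraries of the same 3 genotypes were used for comparison. Nothing in the sources says that replicate libraries were made from different plants, so every p-value measures only the spread between these libraries.

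The seed coat is a maternal tissue that surrounds and feeds the developing embryo, and in lentil it also holds the pigments that colour the seed. The endosperm arises from fertilization and in legumes is largely used up as the embryo grows. Storage proteins such as vicilin are made mainly in the embryo, so that transcripts of embryo genes in a dissected seed coat may mark adhering embryo tissue. Lipid transfer proteins are small secreted proteins that bind lipids, and several of them are plant food allergens. The deposited tables give gene identifiers without gene names, so the genes below are described by identifier, level and position. The number before the letter g in an identifier is the chromosome, and the digits after it rise along the chromosome. Identifiers therefore give the order of genes, not their positions in bases.

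The labels of the 2 cultivars crossed between the tissues. Of the 116 genes that were on in 1 cultivar label and off in the other in both tissues, all 116 were on under the opposite label in the other tissue. Which tissue carries the exchanged labels cannot be told apart from these counts. The groups are therefore called the Redmoon-labelled and Gold-labelled libraries, and both are given wherever seed coat and embryo are set side by side. Total counts ranged from 5907695 to 6691125 in M11, from 7571791 to 11655232 in the Redmoon-labelled and from 21171045 to 24309401 in the Gold-labelled seed coat libraries. The biological coefficient of variation was 4.50% within M11 and 3.33% within the Redmoon-labelled libraries. The 16 vicilin genes took 0.210% ± 0.0135 (SD, n = 3) of the counts in M11 and 0.747% ± 0.0339 (SD, n = 3) in the Redmoon-labelled libraries, against 0.181% in the Gold-labelled ones.

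Most of the expressed seed coat transcriptome differed between M11 and the Redmoon-labelled libraries. Levels are given in CPM, counts per 1000000 reads, after scaling of the library sizes by TMM, the trimmed mean of M values, except where library totals are named. Log2 fold changes are M11 minus Redmoon. Of 19371 genes with enough counts to be tested, 13838 passed an adjusted p of 0.05 in edgeR's quasi-likelihood test, which is 71.4%. M11 was higher in 7213 of them (37.2%) and lower in 6625 (34.2%). The 3 M11 libraries did not overlap with the 3 Redmoon-labelled libraries in 13995 genes (72.2%). A further 58 of the genes tested had no counts in any of the 6 libraries and had passed the filter through the Gold-labelled libraries alone. Against the Gold-labelled libraries, which share the M11 libraries and the fit, 6951 genes were higher in M11 (35.9%) and 7140 lower (36.9%), or 72.7% in all.

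Most of these differences were small. The median absolute log2 fold change was 0.60 over all genes tested and 0.88 over those called, and the middle 50% of the genes lay between -0.54 and 0.66. At least a 2-fold difference was found for 3341 genes higher in M11 (17.2%) and 2834 lower (14.6%). The balance turned with the size of the fitted fold. At 4-fold, 1479 called genes were higher and 1398 lower, whereas at 16-fold 472 were higher and 651 lower, and at 256-fold 95 were higher and 196 lower. For genes without counts in 1 group, the fitted fold is not a measured size. In the 256-fold class, a floor of 3 counts over the empty group put Lcu.2RBY.1g027660 at only 23.1-fold or more. For Lcu.2RBY.7g044060 the limit was 54.7-fold. The depths of the groups also differed, so the turn at large folds is a description of the fit only. The share of genes called rose with the level, from 52.3% of 1437 genes under 1 CPM to 90.4% of 73 genes at 1000 CPM or more. Genes under 1 CPM over both groups could pass the filter through 1 group alone or through the Gold-labelled libraries. The share called in that class is thus shaped by the filter, and all its calls were of at least 2-fold. Between 1 and 10 CPM, 2599 genes were higher in M11 and 1885 lower. Between 100 and 1000 CPM the order turned, with 739 higher and 963 lower. At 10 CPM or more as a whole, 4219 of 11077 genes were higher and 4384 lower, and their median log2 fold change was -0.01.

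**Figure D1:**
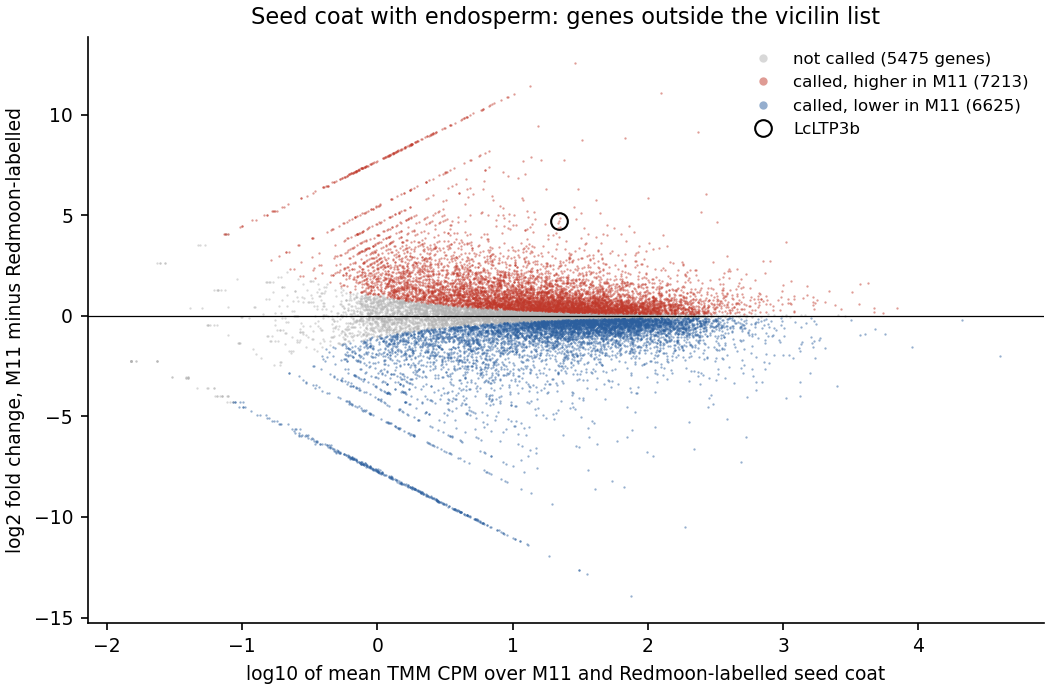
Log2 fold change of M11 over the Redmoon-labelled seed coat libraries (vertical axis) against the log10 of the mean TMM-scaled CPM over both groups (horizontal axis), with 1 point per gene, coloured by the edgeR call, and LcLTP3b circled. Points spread to both sides at every level, the straight lines of points at the left are genes with very few or no counts in one group, and the 58 genes with no counts in the 6 libraries are left out.

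M11 libraries gave a smaller share of their reads to the most abundant genes. The 10 most abundant genes of each library took 8.57%, 8.60% and 8.56% of the counts in M11 and 12.9%, 13.7% and 12.9% in the Redmoon-labelled libraries. All 3 M11 values were the lower ones, and the means were 8.58% ± 0.0245 and 13.2% ± 0.489 (SD, n = 3 each; exact two-sided permutation p = 0.1, the smallest that 3 against 3 libraries allow). The Gold-labelled libraries lay between them at 11.5%. The M11 libraries had 17881, 17641 and 17820 genes at 1 CPM or more by library totals, while the Redmoon-labelled libraries had 17215, 17173 and 17235. At 10 CPM or more the counts were 11194 to 11287 genes in M11 and 10474 to 10593 in the Redmoon-labelled libraries, again without overlap (exact permutation p = 0.1 for both). Such cutoffs depend on the share that the most abundant genes take, so they are not a separate result. Genes with any count, vicilin genes included, overlapped between the groups. They numbered 22881, 23027 and 22948 in M11 and 23448, 22797 and 23919 in the Redmoon-labelled libraries.

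Several very abundant genes were lower in M11. The most abundant transcript of the Redmoon-labelled seed coat, Lcu.2RBY.5g059060, stood at 61212, 70418 and 62186 CPM there and at 15960, 16438 and 16176 CPM in M11. The groups were far apart, and M11 was 3.99-fold lower (SE 0.05 on the log2 scale; edgeR adjusted p = 1.04e-41). This single gene took 6.02% of all counts in the Redmoon-labelled libraries and 1.71% in M11, where it ranked as the second most abundant gene. It was a gene of the seed coat and endosperm, with 5.66 CPM by library totals in M11 embryos. The Gold-labelled seed coat held 38245 ± 4731 CPM (SD, n = 3), between both other groups.

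Lcu.2RBY.2g010940 followed the same order. It measured 13695, 13454 and 13335 CPM in the Redmoon-labelled libraries and 4569, 4634 and 4628 CPM in M11, with 8997 ± 588 CPM (SD, n = 3) in the Gold-labelled ones. The M11 values were 2.93-fold lower and did not overlap with the others (log2 fold change -1.55, SE 0.04; edgeR adjusted p = 2.22e-41). Lcu.2RBY.6g031830 had the steepest drop among the abundant genes, from 4557, 4644 and 4528 CPM to 406, 401 and 413 CPM in M11. It was 11.3-fold lower and ranked 10 among the Redmoon-labelled genes but 254 in M11 (log2 fold change -3.49, SE 0.04; edgeR adjusted p = 1.91e-59). Lcu.2RBY.2g001170 was 1.84-fold lower, with 3944, 4142 and 3966 CPM in M11 against 7271, 7659 and 7249 CPM (edgeR adjusted p = 3.76e-30). All of these genes were also lower in M11 than in the Gold-labelled libraries, as were 36.9% of all genes tested. Both comparisons use the same M11 libraries, so the second is no independent support.

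The most abundant M11 transcript, Lcu.2RBY.4g023050, changed little and depended on the scaling. It measured 19738, 19511 and 20252 CPM in M11 and 22565, 23343 and 21821 CPM in the Redmoon-labelled libraries. The groups did not overlap, and the log2 fold change was -0.19 (SE 0.04; edgeR adjusted p = 1.10e-05). With library totals alone it was -0.02 and no longer called (adjusted p = 0.641), and against the Gold-labelled libraries M11 was higher by 0.67. The 5 genes that fell most in CPM, this one included, together took 4.76% ± 0.0417 of the counts in M11 and 10.6% ± 0.502 in the Redmoon-labelled libraries (SD, n = 3 each). They were chosen for their difference, so the sums describe them and carry no test.

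Other abundant seed coat genes were higher in M11. Lcu.2RBY.3g005030 stood at 6421, 6706 and 6230 CPM in M11 and at 2055, 2078 and 2000 CPM in the Redmoon-labelled libraries. It was 3.16-fold higher with no overlap (log2 fold change 1.66, SE 0.04; edgeR adjusted p = 6.05e-44), but the Gold-labelled libraries reached 7421 ± 94.3 CPM, so that M11 was lower than them (log2 fold change -0.20, adjusted p = 2.01e-06). Lcu.2RBY.6g032620 was 2.32-fold higher, with 4437, 4574 and 4475 CPM against 1947, 1889 and 1986 CPM (log2 fold change 1.21; edgeR adjusted p = 1.89e-37). The Gold-labelled value for this gene, 4091 ± 52.7 CPM, was close to that of M11. Lcu.2RBY.7g077270 rose by only 1.31-fold, from 6237, 5978 and 5910 CPM to 7794, 8204 and 7829 CPM (edgeR adjusted p = 1.78e-14), and did not pass the test against the Gold-labelled libraries (log2 fold change -0.06, adjusted p = 0.136).

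A pair of abundant genes was graded over the 3 genotypes. Lcu.2RBY.5g074150 measured 5682, 5310 and 5633 CPM in M11 and 1817, 1876 and 1830 CPM in the Redmoon-labelled libraries. M11 was 3.01-fold higher (log2 fold change 1.59, SE 0.05; edgeR adjusted p = 1.18e-38), while the Gold-labelled libraries held only 24.4 ± 4.61 CPM (SD, n = 3). Lcu.2RBY.4g058260 had 12054, 12989 and 13795 counts in M11, 1663, 1027 and 1660 in the Redmoon-labelled and 8, 6 and 4 in the Gold-labelled libraries. In CPM these were means of 1937, 153 and 0.264, and M11 was 12.6-fold higher than the Redmoon-labelled libraries (log2 fold change 3.66, SE 0.04; edgeR adjusted p = 1.66e-58). Both were far lower in M11 embryos than in M11 seed coat, at 63.9 and 4.27 CPM by library totals.

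Not all abundant genes differed. Lcu.2RBY.7g072870 measured 2799, 2817 and 2855 CPM in M11 and 2814, 2827 and 2981 CPM in the Redmoon-labelled libraries, and the groups overlapped (log2 fold change -0.03, SE 0.04; edgeR adjusted p = 0.535). Lcu.2RBY.3g064990 also overlapped between the groups, at 2535, 2637 and 2493 CPM against 2509, 2498 and 2556 CPM (log2 fold change 0.02, adjusted p = 0.647). Lcu.2RBY.1g034960 had 1495, 1504 and 1458 CPM against 1420, 1437 and 1458 CPM (log2 fold change 0.05, adjusted p = 0.247). Under library totals alone all 3 were called higher in M11, by 0.14, 0.19 and 0.21, and that scaling moved the median of all genes from 0.04 to 0.21. Of the 27 genes among the 20 most abundant of either group, 11 were higher in M11, 14 lower and 2 not called, and 13 were in both lists.

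**Figure D2:**
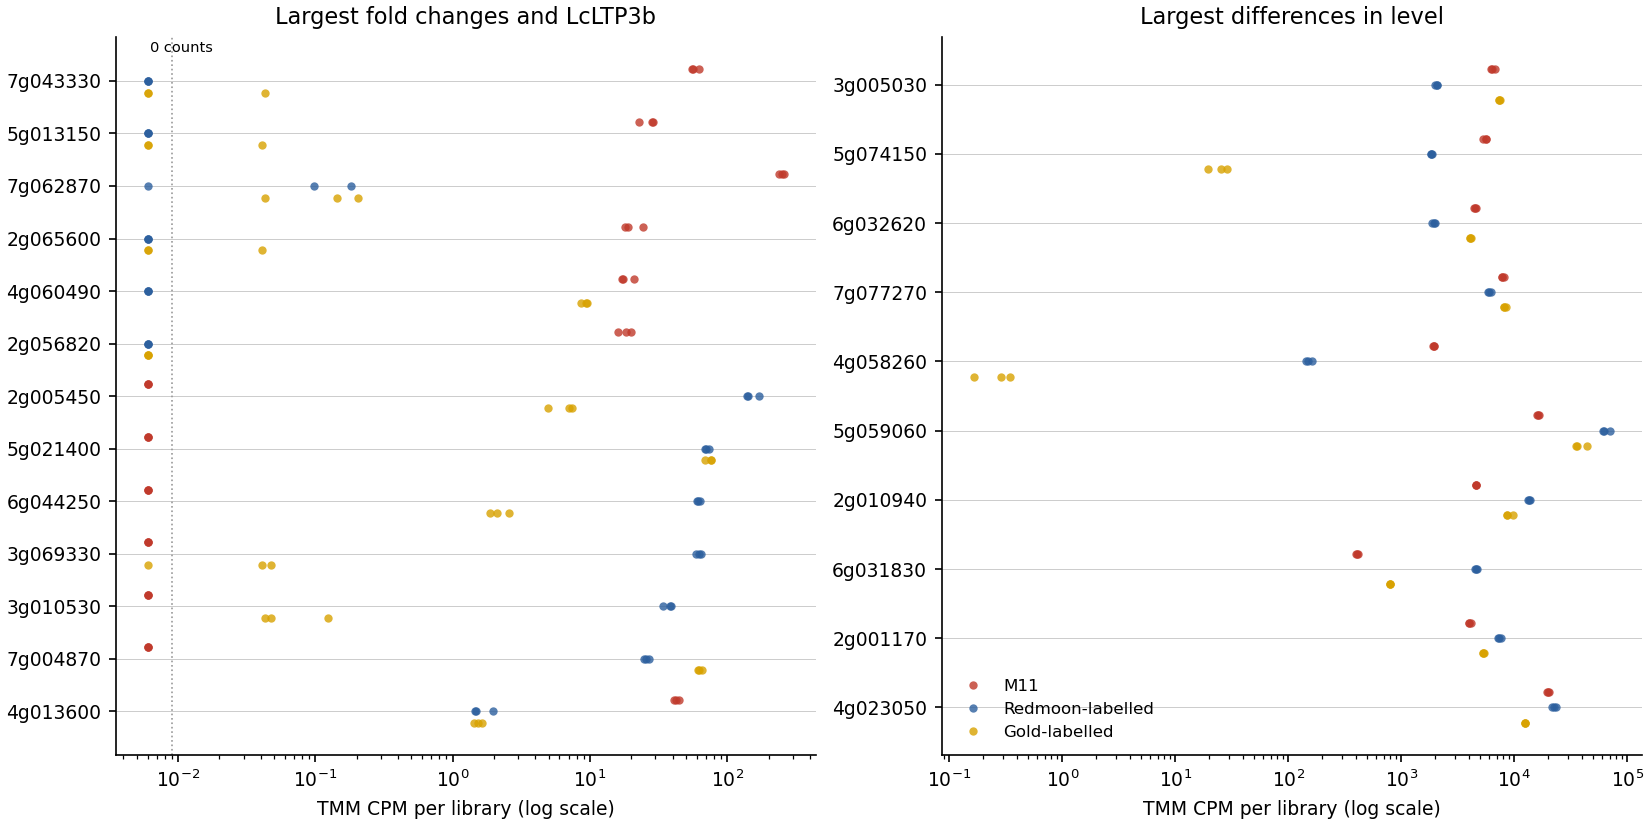
Levels of the genes with the largest folds and of LcLTP3b (left panel, LcLTP3b in the bottom row) and of the genes with the largest differences in CPM (right panel), in TMM-scaled CPM on log axes, with 1 point per seed coat library of M11 and of the Redmoon and Gold labels; libraries with 0 counts are drawn at the left edge. Lcu.2RBY.5g059060 is at 61212 CPM or more in the Redmoon-labelled libraries and at 16438 CPM or less in M11, and LcLTP3b has a mean of 42.7 CPM in M11 against 1.63 and 1.52 CPM in the others.

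LcLTP3b itself (Lcu.2RBY.4g013600), the gene whose mutated allele M11 was selected for, was expressed at a higher level in M11 seed coat. It had 263, 277 and 316 counts in the M11 libraries, 15, 14 and 16 in the Redmoon-labelled and 38, 30 and 37 in the deeper Gold-labelled ones. In CPM the means were 42.7 ± 1.78, 1.63 ± 0.297 and 1.52 ± 0.0975 (SD, n = 3 each), and no M11 library came near the cultivars. The log2 fold change over Redmoon was 4.74 (SE 0.16; edgeR adjusted p = 2.62e-35), a 26.7-fold difference. In embryos the TMM-scaled means were 39.5 CPM in M11, 22.5 CPM in the Redmoon-labelled and 43.6 CPM in the Gold-labelled libraries. M11 was higher than the former (log2 fold change 0.81; edgeR adjusted p = 3.11e-08) but did not pass the test against the latter (log2 fold change -0.17, adjusted p = 0.109), whereas library totals gave 61.2, 22.3 and 28.3 CPM. Counts per gene do not show which allele was read, and a mutation of the coding sequence is not itself a change in transcript number.

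Most of the largest folds were of genes read in only 1 of the groups. A gene was taken as on in a group with at least 2 CPM by library totals in all 3 libraries and as off with at most 0.1 CPM in all 3. By this rule 113 genes were on in M11 and off in the Redmoon-labelled libraries, and 176 were on in the Redmoon-labelled libraries and off in M11. The off group had no counts at all in 87 of the 113 and in all 176. In the shallower M11 libraries a single count already exceeds 0.1 CPM, so the absence of counts in all 176 follows from the rule. Over the M11 group 3 counts correspond to 0.158 CPM, against 0.0999 CPM for the Redmoon-labelled group. The limits of detection were thus unequal. These limits cover counting error only. Most on/off genes were of modest level, with a median of 4.77 CPM (range 2.32 to 61.1) for those on in M11 and 5.40 CPM (range 2.16 to 142) for those on in the Redmoon-labelled libraries.

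Among genes on in M11, Lcu.2RBY.7g043330 had 347, 415 and 396 counts in M11 and none in any Redmoon-labelled library. It was at least 545-fold higher, against a floor of 3 counts over the Redmoon-labelled group, and had 1, 0 and 0 counts in the Gold-labelled libraries. Lcu.2RBY.5g013150 had 143, 191 and 205 counts against none (at least 254-fold higher). Lcu.2RBY.7g062870 was more abundant and nearly of this kind, although 2 counts in a Redmoon-labelled library put it outside the rule. It had 1619, 1684 and 1685 counts in M11, 1, 0 and 2 in the Redmoon-labelled and 1, 3 and 5 in the Gold-labelled libraries. Its mean was 249 ± 10.5 CPM in M11 and 0.0931 CPM in the Redmoon-labelled libraries (log2 fold change 11.07, SE 0.15; edgeR adjusted p = 4.57e-56). All 3 genes were thus read almost only in M11 among the 3 genotypes.

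Lcu.2RBY.2g056820 belonged to the same kind, with 125, 122 and 114 counts in M11 and none in the 6 cultivar libraries (at least 170-fold higher than Redmoon). Lcu.2RBY.2g065600 had 119, 163 and 127 counts against none (at least 193-fold higher) and was more abundant in the M11 embryo, with 75.6 CPM by library totals. Lcu.2RBY.4g060490 was different, since it had 130, 116 and 122 counts in M11, none in the Redmoon-labelled and 224, 182 and 229 in the Gold-labelled libraries. Over the Redmoon-labelled libraries its difference was at least 173-fold, but it was also expressed under the other cultivar label, at 9.21 ± 0.478 CPM.

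Among genes off in M11, Lcu.2RBY.2g005450 was the most abundant, with no counts in M11 and 1730, 1009 and 1534 in the Redmoon-labelled libraries. M11 was at least 899-fold lower, and the Gold-labelled libraries held 172, 104 and 173 counts. Lcu.2RBY.5g021400 had no counts in M11, 746, 486 and 773 in the Redmoon-labelled and 1783, 1588 and 1694 in the Gold-labelled libraries (at least 422-fold lower than Redmoon). The cultivar labels were alike for this gene, at 70.6 ± 2.47 and 73.7 ± 3.72 CPM (SD, n = 3 each). Lcu.2RBY.6g044250 had 619, 430 and 704 counts in the Redmoon-labelled libraries and none in M11 (at least 369-fold lower), with 44, 54 and 51 counts in the Gold-labelled ones.

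Lcu.2RBY.3g069330 was read almost only under the Redmoon label. It had 630, 457 and 657 counts there, none in M11 and 0, 1 and 1 in the Gold-labelled libraries (at least 367-fold lower in M11). Lcu.2RBY.3g010530 had the same pattern, with 391, 240 and 431 counts against none (at least 224-fold lower) and 1, 1 and 3 in the Gold-labelled libraries, whereas in embryos it had 1744 counts under the Gold label and 0 under the Redmoon label. Lcu.2RBY.7g004870 was absent from M11 seed coat only. It had no counts there against 251, 192 and 285 in the Redmoon-labelled and 1529, 1288 and 1512 in the Gold-labelled libraries (at least 153-fold lower than Redmoon), but 211 counts in the M11 embryo libraries.

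The on/off genes lay on all 7 chromosomes. Over all tested genes they were 113 and 176 of 19371, and their spread over the chromosomes was not tested. Genes on in M11 numbered 35 of 3225 tested genes on chromosome 2. On each of the other chromosomes they numbered between 5 and 16, of 2350 to 2962 tested genes. Genes on in the Redmoon-labelled libraries were fewest on chromosome 7, with 8 of 2549 tested genes. They numbered between 21 and 37 on each of the others. Only chromosomes 2 and 7 had more genes on in M11 than on in the Redmoon-labelled libraries (35 against 26 and 15 against 8). Some on/off genes stood near another of the same direction, and no background for this was worked out. Within 5 gene models of each other there were 6 pairs of genes on in M11, which held 12 of the 113, and 14 pairs of genes on in the Redmoon-labelled libraries, which held 28 of the 176, and no group was larger than a pair.

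Both kinds were set beside the other tissue and the other cultivar label. Of the 113 genes on in M11 seed coat, 61 were also on in M11 embryos and 12 off, and in the Gold-labelled seed coat 67 were off and 23 on. Of the 176 genes on in the Redmoon-labelled seed coat, 152 were off in M11 embryos too and 2 on, and in the Gold-labelled seed coat 99 were on and 52 off. In embryos, 32 of the 113 were on in M11 and off in the Redmoon-labelled libraries, and 55 were on in M11 and off in the Gold-labelled ones. Of the 176, 61 were off in M11 embryos and on under the Redmoon label, and 94 under the Gold label. None was on the other side in embryos under either label. Both lists were chosen by the state of M11 seed coat, and the number of on/off genes over all genes in embryos is not given. These counts therefore have no background and describe the lists only.

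Neighbouring genes could differ steeply in opposite directions. Lcu.2RBY.7g044050 had 106, 107 and 116 counts in M11 and none in the Redmoon-labelled libraries (at least 155-fold higher), while the next gene, Lcu.2RBY.7g044060, had none in M11 and 74, 65 and 121 in the Redmoon-labelled libraries (at least 54.7-fold lower). The Gold-labelled libraries were low in both, with 27, 44 and 34 counts of the former and 0, 1 and 0 of the latter. In the other pairs, not every gene met the on/off rule. Lcu.2RBY.1g027660 had 20, 16 and 13 counts in M11 against none (at least 23.1-fold higher), and its tested neighbour Lcu.2RBY.1g027770 had none against 139, 76 and 137 (at least 74.1-fold lower). Lcu.2RBY.1g043600 had 1, 0 and 0 counts in M11 against 144, 81 and 138 (log2 fold change -7.75; edgeR adjusted p = 2.90e-22), and Lcu.2RBY.1g043660 had 24, 17 and 7 against none (at least 22.6-fold higher). Where such neighbours are near-identical copies or overlap, the counting could have divided their reads, since how reads with several matches were treated is not given in the sources used here, and the library kit does not mark the strand.

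Differences were spread evenly over the chromosomes. The share of tested genes called lay between 70.7% on chromosome 2 and 72.3% on chromosome 6, and was 69.8% for unplaced genes. Of the genes called, 50.7% were higher in M11 on chromosome 3 and 53.3% on chromosome 7, with the other chromosomes between them. The median log2 fold change was between 0.02 and 0.06 on every chromosome. Calls of at least 2-fold took from 30.5% of the genes on chromosome 1 to 32.5% on chromosome 4.

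On a finer scale the shares varied. The tested genes were cut in order into 374 windows of 50 genes, in which the share called ran from 54% to 88% with a median of 72%, and the share called at 2-fold or more from 16% to 62% with a median of 32%. The window with the most large differences ran from Lcu.2RBY.6g002930 to Lcu.2RBY.6g004640, with 16 genes higher and 15 lower. The window from Lcu.2RBY.7g019030 to Lcu.2RBY.7g020830 held 60% of large differences, and they leaned to one side, with 23 higher and 7 lower and the highest median log2 fold change of any window, 0.50. The window from Lcu.2RBY.4g047820 to Lcu.2RBY.4g049350 also held 60%, but with 12 higher and 18 lower. At the other end, 5 windows held only 16%, among them Lcu.2RBY.2g078960 to Lcu.2RBY.2g080270. The lowest median, -0.45, was that of the windows Lcu.2RBY.5g022240 to Lcu.2RBY.5g024240 and Lcu.2RBY.3g053690 to Lcu.2RBY.3g054600. The windows were not tested.

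**Figure D3:**
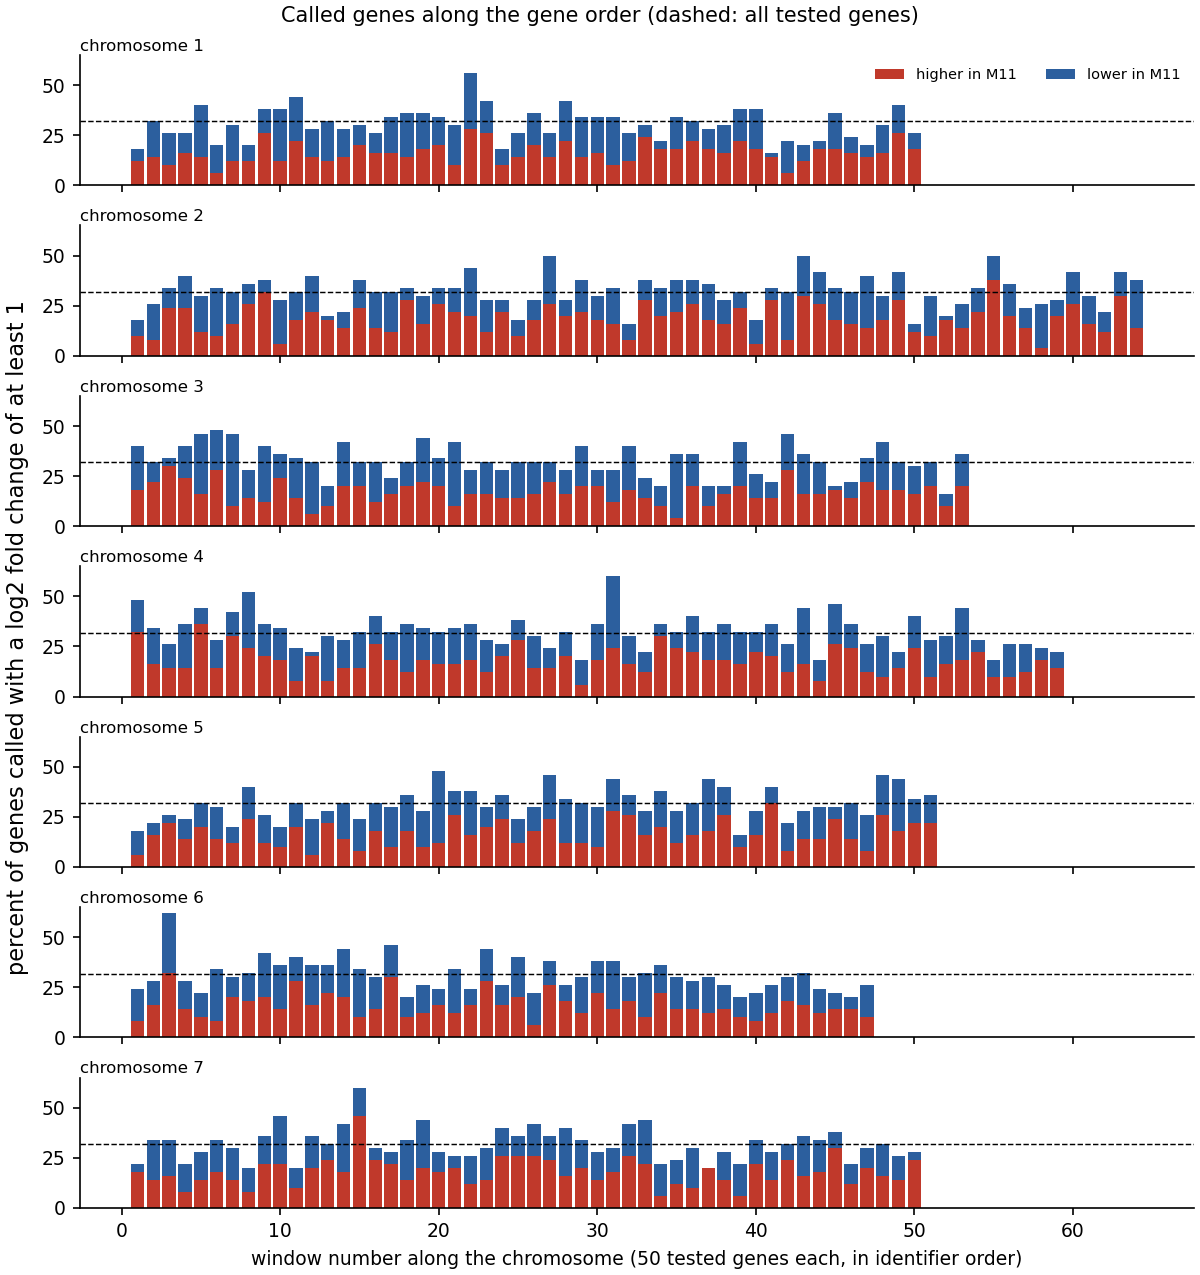
Share of tested genes called at 2-fold or more, in percent, over windows of 50 consecutive tested genes along each chromosome, in the order given by the identifiers, not in bases; each bar stacks genes higher and lower in M11, and the dashed line is the share over all genes tested, 31.9%. The shares run from 16% to 62% around a median of 32%, with the highest windows on chromosomes 6, 7 and 4.

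Neighbouring genes were only weakly alike. Over adjacent tested genes, the correlation of their log2 fold changes across genes was 0.09 (Pearson) and 0.08 (Spearman), and at a distance of 5 genes Pearson's r was 0.01. Genes are not independent replicates, so no p is given. Where both adjacent genes were changed at least 2-fold, 60.9% of 2210 pairs moved in the same direction, against 54.3% at a distance of 2 genes and 48.5% at 50.

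Most genes with a large difference stood alone in the gene order, as 1983 single genes higher in M11 and 1687 lower. Only 7 runs of 7 or more adjacent tested genes changed at least 2-fold in the same direction, 6 higher in M11 and 1 lower. The longest held 13 genes each. The run from Lcu.2RBY.7g020410 to Lcu.2RBY.7g020550 spanned 15 gene models on chromosome 7, and its 13 tested genes had log2 fold changes from 1.34 to 3.05. Summed over these genes, the M11 libraries held 807, 685 and 531 CPM and the Redmoon-labelled libraries 145, 163 and 135 CPM, whereas the Gold-labelled mean was 3.32 ± 0.143 CPM (SD, n = 3). The M11 mean of 674 ± 138 CPM was 4.56 times the Redmoon-labelled mean of 148 ± 14.1 CPM, with no overlap.

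Within this run, Lcu.2RBY.7g020470 had the steepest difference, with 171, 145 and 111 CPM in M11 against 16, 20.7 and 15.6 CPM (log2 fold change 3.05, SE 0.10; edgeR adjusted p = 7.46e-36). Lcu.2RBY.7g020420 and Lcu.2RBY.7g020490 were the most abundant members, with 194, 166 and 141 CPM and 192, 161 and 118 CPM in M11. Their Redmoon-labelled values were 30.3, 34.1 and 26.3 CPM and 48.2, 55.6 and 42.2 CPM. All 13 genes were also higher in M11 than in the Gold-labelled libraries by the test, against 35.9% of all genes tested. The run was chosen by its level in the same M11 libraries, so this is no independent support. The weakest member, Lcu.2RBY.7g020550, had 1.44, 2.23 and 1.98 CPM against 1.08, 0.846 and 0.362 CPM (log2 fold change 1.34, adjusted p = 0.00455) and lost its call without Redmoon replicate 3 (log2 fold change 0.93, adjusted p = 0.0711). In embryos the run held 18.2 CPM in M11, 3.28 CPM under the Redmoon label and 1.98 CPM under the Gold label by library totals.

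The other run of 13 genes lay at the start of the gene order of chromosome 4, from Lcu.2RBY.4g000110 to Lcu.2RBY.4g000350, over 25 gene models. Its log2 fold changes were between 1.19 and 2.33. The summed level was 78.1, 71.0 and 62.3 CPM in M11 and 27.7, 27.9 and 22.4 CPM in the Redmoon-labelled libraries, a ratio of 2.71, while the Gold-labelled libraries held 0.791 ± 0.155 CPM. Lcu.2RBY.4g000330 made up the largest part, with 28.5, 25.8 and 20.9 CPM in M11 against 10.5, 13 and 9.77 CPM (log2 fold change 1.19, SE 0.13; edgeR adjusted p = 5.58e-12). The other members were low, Lcu.2RBY.4g000340 excepted, and their values rest on few counts. Both runs were thus highest in M11, intermediate in the Redmoon-labelled and nearly silent in the Gold-labelled seed coat.

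The run of 8 genes from Lcu.2RBY.6g039900 to Lcu.2RBY.6g039990 on chromosome 6 had the same order at a higher level, with 1655 ± 37.8 CPM in M11, 548 ± 17.4 CPM in the Redmoon-labelled and 10.2 CPM in the Gold-labelled libraries. The 9 genes from Lcu.2RBY.4g004280 to Lcu.2RBY.4g004530 held 177 ± 24.1 CPM in M11, 39.5 ± 3.98 CPM in the Redmoon-labelled and 12 CPM in the Gold-labelled libraries. The 7 genes from Lcu.2RBY.2g018830 to Lcu.2RBY.2g018920 (254 against 45.5 CPM) and from Lcu.2RBY.5g030760 to Lcu.2RBY.5g031140 (299 against 64.1 CPM) were 5.59 and 4.67 times as high in M11. In these last runs the Gold-labelled libraries were not near zero, at 93.3 and 42.7 CPM. Runs were chosen by their differences, so their sums are descriptions with no test.

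The only long run that was lower in M11 was of another kind. The 7 tested genes from Lcu.2RBY.4g047930 to Lcu.2RBY.4g048050, within 13 gene models, summed to 0.320, 0.298 and 0.141 CPM in M11 and to 25.9, 26.9 and 28.2 CPM in the Redmoon-labelled libraries. The Redmoon-labelled mean was 107 times that of M11, and the Gold-labelled libraries held 34.6 ± 0.574 CPM (SD, n = 3). Lcu.2RBY.4g047960 had 75, 67 and 75 counts in the Redmoon-labelled libraries and Lcu.2RBY.4g047980 had 76, 40 and 94. Neither had a count in any of the 6 M11 libraries of both tissues, while both cultivar labels had counts of them in both tissues. In M11 embryos the 7 genes held 1.08 CPM by library totals, against 14.3 and 16.8 CPM under the Redmoon and Gold labels.

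**Figure D4:**
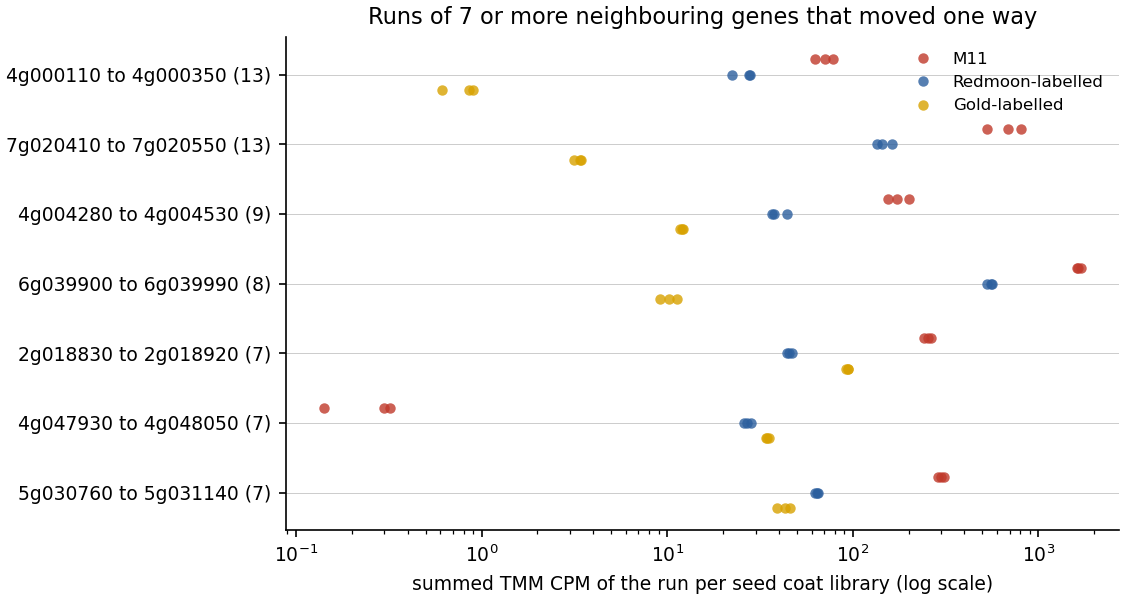
Summed level of each run of 7 or more neighbouring genes that changed at least 2-fold in the same direction, in TMM-scaled CPM on a log axis, with 1 point per seed coat library of M11, Redmoon-labelled and Gold-labelled seeds. M11 is highest in the 6 higher runs, and in the run from Lcu.2RBY.4g047930 the M11 libraries are at 0.320 CPM or less against at least 25.9 CPM in the Redmoon-labelled ones.

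Genes that mark the embryo were more often lower than higher in M11, but by how much depended on the embryos that chose them. A gene was taken as embryo-rich when its embryo level exceeded that of the seed coat 32 times or more in the Gold-labelled libraries, with at least 10 CPM in embryo. The Gold-labelled seed coats are outside the comparison but share its fit. Of 181 such genes outside the vicilin list, 164 were tested. M11 was higher in 26 (15.9%, against 37.2% of all genes tested), lower in 118 (72.0%, against 34.2%) and not called in 20, and the median log2 fold change was -2.19, against 0.04 over all genes tested. With an 8-fold rule, 103 were higher and 190 lower, and the median was -0.78.

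Because the cultivar labels cross between the tissues, this rule sets the embryo of one cultivar against the seed coat of the other. It therefore also takes in genes that differ between the cultivars, such as Lcu.2RBY.3g010530 above, which was read in the Redmoon-labelled but hardly in the Gold-labelled seed coat. Part of the lean towards lower genes is thus built into the list. With the Redmoon-labelled embryos set against the Gold-labelled seed coats in place of it, 157 genes were tested, of which 54 were higher in M11 (34.4%), 73 lower (46.5%) and 30 not called, with a median of -0.39. For the 104 tested genes rich under both embryo labels, 21 were higher and 69 lower, and the median was -1.41.

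The summed level of the list chosen under the Gold label was 3042, 3020 and 3318 CPM in M11 and 8640, 8918 and 9316 CPM in the Redmoon-labelled libraries by library totals. M11 had 0.349 times the Redmoon-labelled level (exact two-sided permutation p = 0.1), and the ratio was 0.451 for the list from the Redmoon-labelled embryos and 0.354 for genes in both. The Gold-labelled sum, 1366 CPM, was made low by the choice of genes and is not compared. The vicilin share given above was also higher in the Redmoon-labelled libraries than in M11. In bulk samples, fewer cells of a type and less RNA per cell cannot be told apart, and the part of adhering embryo tissue in the other differences was not tested. Without all genes whose embryo level was 8 times that of the seed coat or more under the Gold label, 7110 of 19011 genes were called higher in M11 and 6435 lower, or 71.2% in all. Only 360 tested genes were left out by this, so the share called could hardly move. It therefore says nothing about adhering embryo tissue in the remaining genes.

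Genes of the seed coat and endosperm, chosen by the same rule in the other direction, were lower in M11 more often than higher. Of 988 tested, 310 were higher (31.4%, against 37.2% of all genes), 585 lower (59.2%, against 34.2%) and 93 not called, and the median log2 fold change was -0.46. The list needed at least 10 CPM in seed coat, and over all tested genes at a mean of 10 CPM or more, 38.1% were higher and 39.6% lower. It was chosen in cultivar libraries without M11, so part of the lean may come from that choice. With the Redmoon-labelled embryos in the rule, 250 of 853 were higher and 531 lower, with a median of -0.56. The summed level of the 988 genes by library totals was 238506 ± 1789 CPM in M11 and 315267 ± 3731 CPM in the Redmoon-labelled libraries (SD, n = 3 each), a ratio of 0.757 (exact two-sided permutation p = 0.1). The Gold-labelled libraries held 330179 CPM, but the list was chosen in them. Of the 27 most abundant genes described above, 19 were seed-coat-rich, of which 11 were lower and 7 higher in M11, and none was embryo-rich.

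**Figure D5:**
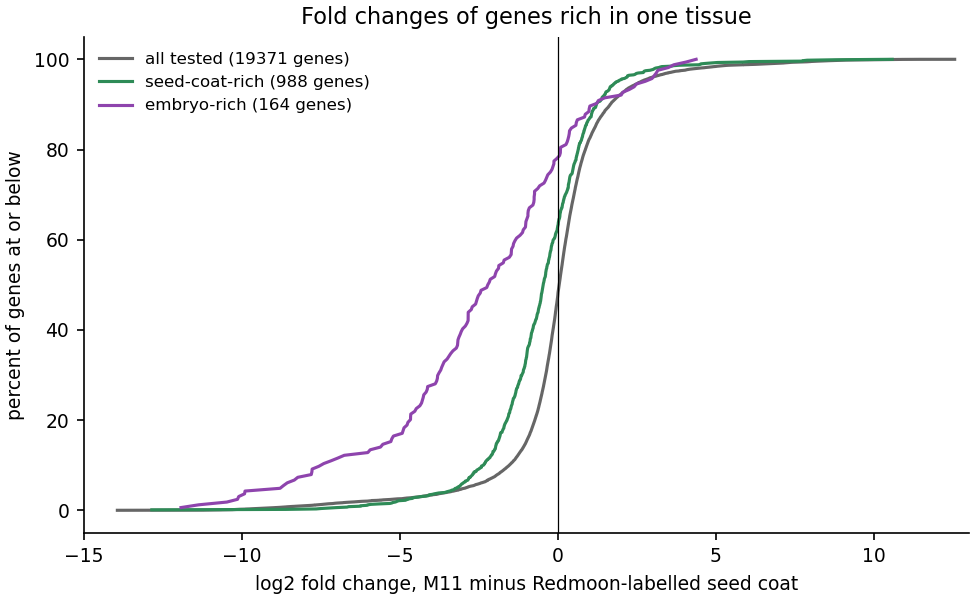
Cumulative share of genes, in percent (vertical axis), at or below each log2 fold change of M11 over the Redmoon-labelled seed coat libraries (horizontal axis), with 1 line each for all genes tested, the seed-coat-rich genes and the embryo-rich genes. The lines reach their middle at medians of 0.04, -0.46 and -2.19, with the embryo-rich list chosen under the Gold label furthest to the lower side.

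Many of the seed coat differences had a counterpart in the embryo, which was measured in other libraries. Of the genes higher in M11 seed coat, 6304 were tested in embryos, and 48.7% of them were higher in M11 embryos than in the Redmoon-labelled embryos and 59.2% higher than in the Gold-labelled ones. Over all genes tested in embryos, the shares called higher were 31.5% and 36.9%. Of the genes lower in M11 seed coat, 5559 were tested in embryos, of which 49.1% and 61.8% were lower there, against 32% and 37.1% over all genes. For seed coat differences of at least 2-fold the shares were higher, 57.5% and 69.6% for genes higher in M11 and 57.4% and 72.3% for genes lower. Both directions were shared more often with the comparison under the Gold label in embryos than with that under the Redmoon label. The Gold-labelled embryo comparison also had more calls over all genes (74.0% against 63.6%).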

How the data were processed

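Per the labels, polyA RNA was extracted with a plant RNA kit and made into libraries with a TruSeq kit. The authors deposited raw read counts per gene, as whole numbers and without normalization. STAR 2.7.10 is named in the submitters' processing notes. The counting tool and the genome build were not given in the sources used here, nor was the treatment of reads with several matches. Neither a genome nor a gene annotation was used, so no sequences are shown and lists by gene function were not made.

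Counts of the 9 seed coat libraries were modelled with edgeR 4.0.16 in R 4.3.3 (filterByExpr, TMM, glmQLFit and glmQLFTest, 3 groups). Vicilin genes stayed in the fit and in the Benjamini-Hochberg adjustment, and 15 of the 16 were tested. The standard error is the log2 fold change divided by the square root of the F statistic. Embryos had a fit of their own, and the tissues were compared as an interaction over 18 libraries. Every pair of replicates differed by more than sampling noise, and all were kept. Fold limits for genes without counts assume 3 counts over the group.

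Named genes were the 6 higher and 6 lower with the largest fold among called genes at 10 CPM or more in every library of the higher group, the 5 higher and 5 lower with the largest difference in CPM, the 3 most abundant not called, LcLTP3b, the longest runs and the 3 most opposite neighbouring pairs. The first 2 kinds needed groups that did not overlap. Other genes named in the text were chosen after their values were seen. The genes and lists were chosen with earlier results of these data known. The ratio for tissue-rich genes had 0.5 CPM added. Alternatives were DESeq2 1.42.0, other scalings, filters, samples, thresholds and window sizes, a replicate block, thinning to the smallest total, the Gold label in place of Redmoon and tissue-rich lists from the Redmoon-labelled embryos (both added after the data were seen) and each library left out. The scripts were tested on simulated data.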

Additional observations from a re-analysis of the deposited data

Results flagged for a closer look

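For 19 named genes the difference between M11 and the Redmoon-labelled libraries was not the same in embryo as in seed coat, by edgeR's interaction test over 18 libraries (adjusted p under 0.05). The values below are the log2 difference in embryo minus that in seed coat. Because the cultivar labels cross between the tissues, this test alone does not separate a dependence on tissue from an exchange of labels. Interactions with the Gold label or with exchanged labels were not tested. No explanation was weighed.

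Among the abundant genes, the difference was shifted upwards in embryo for Lcu.2RBY.4g023050 (4.20), Lcu.2RBY.6g031830 (4.09), Lcu.2RBY.2g001170 (3.12), Lcu.2RBY.5g059060 (2.59), Lcu.2RBY.6g032620 (2.03) and Lcu.2RBY.4g058260 (1.47). It was shifted downwards for Lcu.2RBY.7g077270 (-1.94), Lcu.2RBY.3g005030 (-1.63) and Lcu.2RBY.5g074150 (-1.07). The genes shifted upwards were scarce in embryos, with 4 to 132 counts under the Redmoon label, so few counts carry most of these values. Those shifted downwards had at least 461 embryo counts in M11 and 269 under the Redmoon label. For Lcu.2RBY.5g074150 the Redmoon-labelled embryos spread widely, at 28.4 ± 21.6 CPM (SD, n = 3). For Lcu.2RBY.4g023050, the log2 fold change in embryo was 4.01 over the Redmoon-labelled and -0.41 over the Gold-labelled libraries. In seed coat it was -0.19 and 0.67. The genes not called in seed coat included Lcu.2RBY.7g072870 (1.11) and Lcu.2RBY.3g064990 (0.32).

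Among the genes at or near 0 counts in 1 group of seed coat libraries, Lcu.2RBY.4g060490 had the largest shift (-10.48), followed by Lcu.2RBY.1g043660 (-8.54), Lcu.2RBY.7g004870 (8.30) and Lcu.2RBY.7g044050 (-7.07). The value of Lcu.2RBY.4g060490 rests on only 6 embryo counts in M11 and 3 under the Redmoon label. LcLTP3b (Lcu.2RBY.4g013600) was shifted by -3.92, that is, from a log2 fold change of 4.74 in seed coat to 0.81 in embryo. Over the Gold-labelled libraries it was 4.80 in seed coat and -0.17 in embryo, so the seed coat value was the larger under either label. Within the long runs, the difference was smaller in embryo for Lcu.2RBY.4g000270 (-3.61), Lcu.2RBY.4g000250 (-2.51) and Lcu.2RBY.7g020470 (-1.82). Few embryo counts carry the first 2 values. In M11 and under the Redmoon label there were 2 and 4 of Lcu.2RBY.4g000270, and 13 and 13 of Lcu.2RBY.4g000250.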

How the results depend on the processing

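The number of genes called was 13838 and stayed within 1.5 times that under other scalings, filters and sample sets. It was 13203 with DESeq2, 14116 with library totals, 14856 of 31116 without a filter and 12530 with libraries thinned to the smallest total. Library totals raised the higher share of calls from 52.1% to 62.4%. With DESeq2, 6601 genes were higher in M11 and 6602 lower, and with its size factors in edgeR 6921 and 6877. With only the 6 libraries of M11 and Redmoon, 6370 were higher and 6426 lower. More genes stayed higher than lower without a filter (7685 and 7171) and with all 18 libraries in 1 fit (7695 and 6697). The small excess of higher genes thus depended on the scaling and the libraries fitted. Leaving out each library gave 13362 to 13889 calls, 6993 to 7256 higher and 6369 to 6635 lower. A minimum of 2-fold left 6175 calls, 3341 higher and 2834 lower. Same-numbered libraries did not deviate together (correlations -0.041, -0.005 and -0.028), and the replicate block gave 13736 calls. Genes on in M11 numbered 195 with on at 1 CPM, 41 at 5 CPM and 204 against the Gold-labelled libraries, and 117 to 144 with a library left out. Genes on in the Redmoon-labelled libraries numbered 273 at 1 CPM, 85 at 5 CPM and 181 to 201 with a library left out. Windows of 25 genes ranged from 44% to 100% called. With an 8-fold rule, 103 embryo-rich genes were higher, 190 lower and the median was -0.78. With lists from the Redmoon-labelled embryos, added after the data were seen, 54 embryo-rich genes were higher and 73 lower (median -0.39, ratio of the sums 0.451), and of those rich under both embryo labels 21 were higher and 69 lower (median -1.41), with a ratio of 0.745 for seed-coat-rich genes. With TMM-scaled sums, the ratios of M11 to Redmoon were 0.311 for embryo-rich and 0.674 for seed-coat-rich genes. Against the Gold-labelled libraries, the called direction turned for Lcu.2RBY.3g005030 (-0.20), Lcu.2RBY.4g023050 (0.67) and Lcu.2RBY.1g043660 (-1.39), while Lcu.2RBY.7g077270 (-0.061) and Lcu.2RBY.1g043600 (2.63, on 1 count) had another sign but were not called (edgeR adjusted p = 0.136 and 0.132). The cause of these changes was not tested. Depth limits the genes under 1 CPM and the on/off calls, since M11 seed coat libraries were the shallowest.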
